A study of Homo sapiens with 4 samples.

Results

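HS2ST1 and 9 further genes that build heparan sulfate chains were followed through the poly(A) sites they used in esophageal squamous cell carcinoma (ESCC) lines given l-lactate. The genes were HS2ST1, HS6ST1, HS6ST2, NDST1, NDST2, EXT1, EXT2, EXTL2, EXTL3 and GLCE. HS2ST1 had been singled out because its distal usage was lower with l-lactate in both lines, so that difference, and every other HS2ST1 value of the same contrast, is given as a description. A poly(A) site cluster (PAC), a group of neighbouring mRNA 3′ ends, was assigned to a gene when its most used site lay within the gene's GENCODE 44 span on the same strand. By this rule 18 of the 17627 PACs of the series belonged to the 10 genes, and 14 of the 18 lay in an annotated 3′ UTR.

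Poly(A) site sequencing (PAS-seq), in which each read is counted as a tag at the base where its mRNA ended, was run on 4 libraries, 1 per condition and line. KYSE30 and TE-1 cells, both established ESCC lines, received 20 mM l-lactate for 24 h or PBS as the control. The cell line field of the control libraries names KYSE32 and TE-3, whereas their titles name K30 and TE1, and the titles were followed here. Total tags per library were inferred as the number under which the listed values come nearest to whole tags. They ranged from 7174991 to 10393799. PACs are listed only above a minimum. The lowest single-site PAC was at 3.07 to 3.10 TPM (tags per 1000000 tags of the library) depending on the library. A PAC that is not listed may thus still have been used. Each tag is a read at an mRNA end, so TPM values were not scaled by transcript length. The libraries were amplified, so a tag is not a count of 1 mRNA molecule. Levels of different genes are set side by side with this limit, and they leave out PACs that are not listed. Because a single library stood for each condition and line, no test across samples was possible, and the 95% intervals below cover counting error only. The epithelial genes EPCAM, CDH1, KRT8 and KRT18 summed to 1172 to 3362 TPM, with KRT8 the largest part in every library. The lines were not alike in them (control, then l-lactate). EPCAM stood at 563 and 635 TPM in KYSE30 and 30.7 and 36.4 TPM in TE-1. CDH1 stood at 204 and 228 TPM in KYSE30. In TE-1 it was unlisted in the control and at 1.30 TPM with l-lactate. Of 6 squamous markers, 4 (TP63, KRT5, KRT14 and SFN) were listed in no library. KRT6A was listed only in KYSE30 (20.3 and 40.4 TPM) and KRT17 only in TE-1 (245 and 187 TPM). Of the leukocyte and endothelial markers none was listed, and the fibroblast markers summed to 0 to 11.7 TPM.

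Heparan sulfate is a linear sugar chain attached to core proteins such as syndecans and glypicans at the cell surface and in the matrix, where it binds growth factors. The chain is started on a short linker, extended by the exostosin enzymes, and then modified in the Golgi: N-deacetylase/N-sulfotransferases exchange acetyl for sulfate groups, an epimerase converts glucuronic to iduronic acid, and O-sulfotransferases place further sulfate groups. HS2ST1 sulfates the uronic acid, mainly iduronic acid, and HS6ST1 and HS6ST2 sulfate the glucosamine. Where a gene has several poly(A) sites in its last exon, the choice among them, called alternative polyadenylation (APA), sets the length of the 3′ UTR without altering the protein.

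HS2ST1 (ENSG00000153936, GRCh38 chromosome 1, plus strand, 86914635 to 87109982) had 4 PACs, the most of the 10 genes. Of these, 3 lay in exon 7, the last exon of HS2ST1-201, whose product has 356 residues: a proximal PAC (pPAS) 1521 nt after the stop codon, a middle PAC at 3497 nt and a distal PAC (dPAS) at 5280 nt, 6 nt before the annotated end of the 3′ UTR. The remaining PAC lay upstream in exon 5 of HS2ST1-202, a transcript with a different 3′ end that encodes 229 residues, 503 nt after that stop codon. A readthrough gene model, ENSG00000267561, also covers all 4 sites on the same strand. The 30 bases of the reference genome that end at each site are shown, in DNA letters on the transcribed strand, because the usage of these sites is what differed; capitals mark AATAAA or, where neither AATAAA nor ATTAAA was found, the match among 10 known variants that each differ from AATAAA by 1 base, here TATAAA or CATAAA. Other near matches are left in lower case.
HS2ST1 alternative last exon, chr1:87098413-87098442 (+): agatactttaataagaactgtatttcctca
HS2ST1 proximal, chr1:87106188-87106217 (+): aagttaatcttgaTATAAAtttgtgtttga
HS2ST1 middle, chr1:87108164-87108193 (+): attcttttttAATAAAatcaaataattcta
HS2ST1 distal, chr1:87109947-87109976 (+): ggttttgtcatttCATAAAtgatattttta

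The proximal and distal sites both carried a variant hexamer, TATAAA and CATAAA, each ending 11 nt before the site. Neither had AATAAA or ATTAAA, the main poly(A) signals, in the 50 nt before it. The middle site had AATAAA ending 14 nt before it, and the site of HS2ST1-202 had AATAAA ending 29 nt before it, so that only its last base is within the stretch shown. Over all 13692 PACs of annotated 3′ UTRs, 83.4% had AATAAA or ATTAAA within 50 nt on the transcribed strand, a site with both counted once. Among the 3′ UTR PACs of the 10 genes it was 11 of 14, and the 3 without were the proximal and distal sites of HS2ST1 and the minor site in the last exon of NDST1. UGUA, the element bound by the cleavage factor CFIm, was searched as TGTA on the transcribed strand in the 100 nt before each site. It occurred once before the proximal site of HS2ST1 (42 nt from it), at 2 places before the middle site (37 and 63 nt) and not before the distal site. It was found at 58.0% of all 3′ UTR PACs and at 7 of 14 of those of the 10 genes. Along the whole 3′ UTR the element was spread unevenly: the 1521 nt up to the proximal site held 17 copies (11.2 per kb), the 1976 nt from there to the middle site 11 (5.57 per kb) and the final 1783 nt 12 (6.73 per kb). AATAAA was absent from the first of these stretches and occurred 4 times in the second and 2 times in the third. These matches describe the sequence only.

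The pPAS of HS2ST1 stood higher with l-lactate in both lines. It stood at 32.1 TPM in the KYSE30 control, 47.9 TPM in KYSE30 with l-lactate, 11.5 TPM in the TE-1 control and 24.2 TPM in TE-1 with l-lactate. The l-lactate library was thus the higher one in each line, by a ratio of 1.5 (1.26 to 1.77) in KYSE30 and 2.10 (1.67 to 2.65) in TE-1. The dPAS went the other way, with 34.1, 25.4, 18.2 and 15 TPM in the same order, a ratio of 0.744 (0.612 to 0.904) in KYSE30 and 0.825 (0.653 to 1.04) in TE-1. Its interval in TE-1 includes 1, so in that line the lower distal level was within counting error. The middle PAC stood at 15.9, 17.3, 10.1 and 7.91 TPM, and both of its ratios, 1.09 (0.838 to 1.41) and 0.783 (0.568 to 1.07), had intervals that include 1. The PAC of HS2ST1-202 was the smallest, at 3.5 TPM in the KYSE30 control, 8.22 TPM in KYSE30 with l-lactate and 3.31 TPM in TE-1 with l-lactate, and the TE-1 control did not list it. In KYSE30 it was higher with l-lactate by a ratio of 2.35 (1.46 to 3.88), on 59 against 26 tags.

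**Figure D1:**
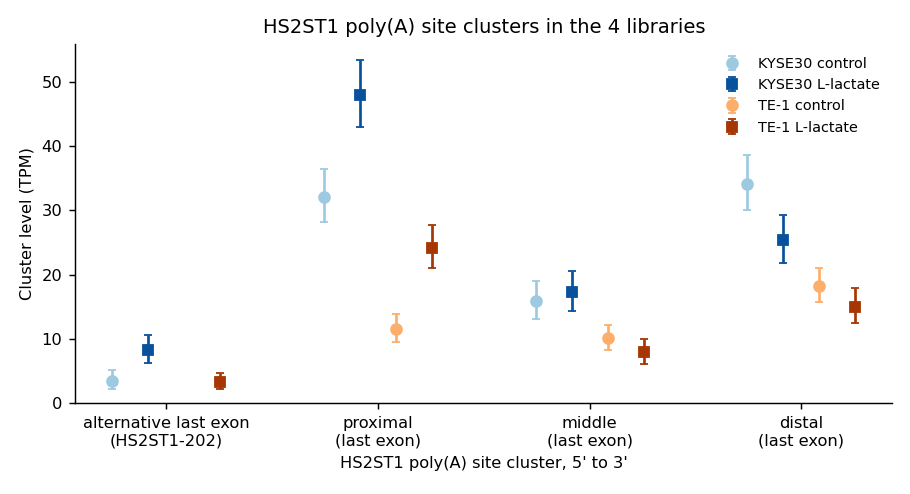
Level in TPM (y axis) of the 4 HS2ST1 poly(A) site clusters (x axis, 5′ to 3′) in the 4 libraries, with 1 point per library and exact Poisson 95% intervals; the cluster of HS2ST1-202 has no point for the TE-1 control, which did not list it. The proximal points with l-lactate (47.9 and 24.2 TPM) lie above their controls (32.1 and 11.5 TPM), and the distal points with l-lactate (25.4 and 15 TPM) lie below theirs (34.1 and 18.2 TPM).

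Each of the 3 last-exon sites kept the same most used base in all 4 libraries. At the proximal site 86.3% to 95.6% of the cluster's tags fell on that 1 base, and at the distal site 79.5% to 85.4%. The tags of the middle cluster were more spread, with 68.6% to 74.6% on its leading base. The position of the leading base thus did not differ between the libraries, but its share did. At the proximal PAC, 474 nt wide, it held 93.3% (89.4 to 95.8) in the KYSE30 control and 86.3% (82.3 to 89.6) with l-lactate. In TE-1 it held 90% (83.3 to 94.2) and 95.6% (91.9 to 97.7), the opposite direction. Shifts of ends within a PAC were not tested.

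As shares of the tags in the last exon, the proximal site took 39.1% (35.3 to 43.0, Wilson) in the KYSE30 control and 52.9% (49.1 to 56.7) with l-lactate, a difference of 13.8 percentage points (8.34 to 19.2, Newcombe). In TE-1 it took 29% (24.8 to 33.5) and 51.4% (46.5 to 56.2), a difference of 22.4 points (15.7 to 28.8). The middle site took 19.4% and 19.1% in KYSE30, and 25.4% and 16.8% in TE-1. Its share was thus level in KYSE30 (-0.30 points, -4.67 to 4.05) and lower with l-lactate in TE-1 (-8.57 points, -14.1 to -2.96). Whether the lines differ in these changes was not tested. For a mean 3′ UTR length of HS2ST1-201, every tag was given the distance of the most used site of its PAC. The spread of tags within a PAC is thus left out. The tag-weighted mean was 3465 nt in the KYSE30 control and 2950 nt with l-lactate, and 3738 nt and 3049 nt in TE-1. The differences were -515 and -689 nt. There were 0.941 proximal tags per distal tag in the KYSE30 control and 1.89 with l-lactate, and 0.635 and 1.61 in TE-1.

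**Figure D2:**
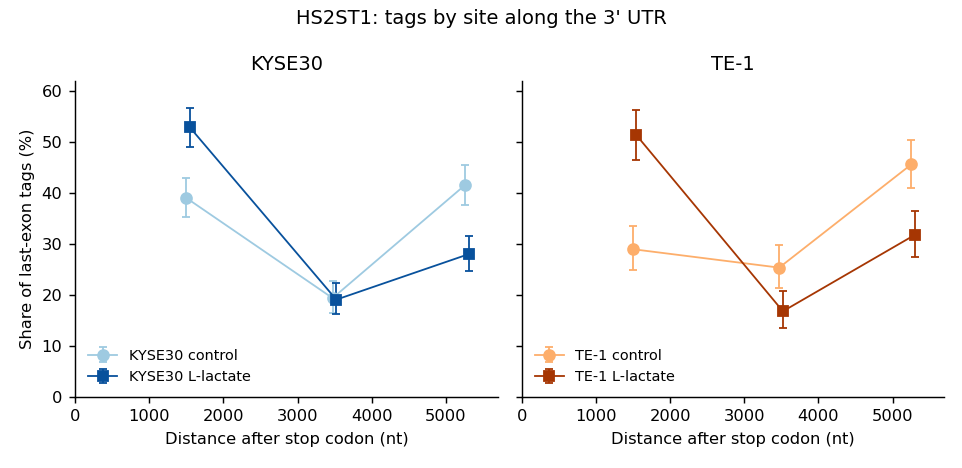
Share of HS2ST1 last-exon tags in percent (y axis) at the proximal, middle and distal sites, placed by their distance after the stop codon in nt (x axis; the points of 1 line are shifted slightly apart), for KYSE30 (left) and TE-1 (right), with Wilson 95% intervals. In both lines the l-lactate library lies above the control at the proximal site (52.9% against 39.1%, and 51.4% against 29%) and below it at the distal site.

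Distal usage, the share of a gene's 3′ UTR tags at its dPAS, was taken over 3′ UTR PACs above 5 TPM in at least 1 of the 2 libraries compared. Of the 10 genes only HS2ST1 had 2 or more such PACs, so distal usage could be measured in it alone. It was 39.8% (253 of 635 tags) in the KYSE30 control and 25.7% (182 of 709) with l-lactate, which is -14.2 percentage points (-19.1 to -9.16). In TE-1 it was 45.7% (189 of 414) and 31.8% (127 of 399), or -13.8 points (-20.3 to -7.13). The l-lactate library was the lower one in both lines, as the choice of HS2ST1 required. The KYSE30 value includes the PAC of HS2ST1-202; over the last exon alone it was -13.5 points. HS2ST1 was chosen by these distal usage values, which therefore carry no test. Of all genes measured, 5.88% were lower by 10 points or more with l-lactate in KYSE30 and 5.19% in TE-1, and 17 of the 1265 genes measured in both lines, 1.34%, were so in both. Ranked by the smaller of their 2 falls among genes above 20 TPM in every library, HS2ST1 was number 3, after AHCTF1 and TMEM237 and before TMEM245. At the 10-point limit CSNK1E lay just inside, with a smaller fall of 10.2 points, and ARPP19 just outside, with 9.66 points.

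**Figure D3:**
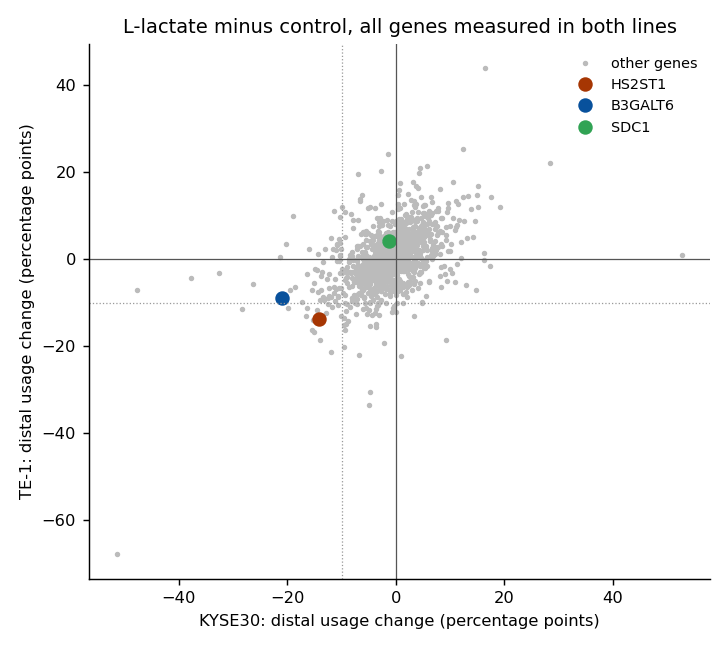
Distal usage with l-lactate minus control, in percentage points, in KYSE30 (x axis) and TE-1 (y axis) for the 1265 genes measured in both lines, 1 point per gene; dotted lines mark -10 points. HS2ST1 lies in the lower left at -14.2 and -13.8 points, B3GALT6 at -20.9 and -8.87 points, and SDC1 near the centre at -1.17 and 4.21 points.

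HS2ST1 was not chosen on the contrast between the control libraries of the lines, although each of the 2 libraries entered the choice. In them its distal usage was 41.5% in KYSE30 and 45.7% in TE-1, a difference of -4.11 points (-10.3 to 2.06) that lies within counting error. Of all genes measured there, 34.3% differed by 10 points or more. The proximal share, in contrast, was 10.1 points (4.17 to 15.8) higher in the KYSE30 control than in the TE-1 control, and the middle share differed by -5.99 points (-11.3 to -0.82). With l-lactate the lines stood closer at the proximal site, at a difference of 1.54 points (-4.66 to 7.75).

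The genes whose distal usage over the 4 libraries was nearest to that of HS2ST1, by the root mean square difference among 1077 other genes, were ATMIN, which encodes a zinc-finger transcription factor, ESYT2, an endoplasmic reticulum tether to the plasma membrane, and HGSNAT, a lysosomal acetyltransferase needed to degrade heparan sulfate. The differences were 4.35, 4.81 and 5.41 percentage points. ATMIN went from 42.0% to 32.4% in KYSE30 and from 47.0% to 26.9% in TE-1. ESYT2 went from 43.6% to 32.5% and from 44% to 37.2%, and HGSNAT from 36.2% to 27.2% and from 35.6% to 31.4%. With 4 libraries this is a likeness in level and no measure of a shared response.

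Summed over its PACs, HS2ST1 stood at 85.5 TPM in the KYSE30 control, 98.8 TPM in KYSE30 with l-lactate, 39.8 TPM in the TE-1 control and 50.4 TPM in TE-1 with l-lactate. Its level ranked at the 81.5th percentile of listed genes in the KYSE30 control and the 63.6th in the TE-1 control. The l-lactate library was higher in both lines, by ratios of 1.16 (1.04 to 1.29) and 1.27 (1.10 to 1.45), neither of which passed 1.5-fold. In bulk RNA, fewer cells with the mRNA and less mRNA per cell cannot be told apart. The gap between the lines was wider: the KYSE30 control was 2.15 times (1.89 to 2.44) the TE-1 control. Over PACs listed in both controls the log2 ratio of TPM + 1 was 1.02 in place of 1.08. By site the ratio of the controls was 2.78 (2.22 to 3.49) at the proximal, 1.57 (1.20 to 2.07) at the middle and 1.87 (1.55 to 2.27) at the distal PAC. Every last-exon site was thus higher in KYSE30, the proximal one by the widest margin of the 3.

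The exostosins were measured through 1 main PAC each. EXTL3, which adds the first N-acetylglucosamine and so commits the linker to heparan sulfate, stood at 25.5 and 24.1 TPM in KYSE30 (control, then l-lactate) and 18.6 and 16.1 TPM in TE-1. EXT1, a subunit of the chain polymerase, stood at 17.1 and 16.6 TPM in KYSE30 and 23.1 and 32.4 TPM in TE-1. The l-lactate library was the higher one in TE-1 only, by a ratio of 1.40 (1.17 to 1.67) against 0.970 (0.749 to 1.26) in KYSE30; the difference between the lines was not tested. The single PAC of EXT1, on chromosome 8, lay 346 nt after the stop codon and 4876 nt before the annotated end of that 3′ UTR. EXT2, the partner subunit, stood at 61.1 and 63.4 TPM in KYSE30 and 34.0 and 42.6 TPM in TE-1, with ratios of 1.04 (0.909 to 1.18) and 1.26 (1.08 to 1.46). Its main PAC spanned 508 nt, and the leading base held only 24.6% to 28.1% of the tags, so several ends were joined in it and a shift among them would not appear in distal usage. The TE-1 l-lactate library alone listed a further EXT2 PAC, at 3.42 TPM on 29 tags, in the longer 3′ UTR of EXT2-208; without it the TE-1 ratio was 1.15 (0.991 to 1.34). EXTL2, which can add a sugar to the linker that stops chain growth, stood at 48.3 and 52.8 TPM in KYSE30 and 43.0 and 44.8 TPM in TE-1, and both of its ratios had intervals that include 1.

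NDST1, which starts sulfation of the chain by replacing acetyl with sulfate groups, had the highest level of the 10 genes in 3 of the 4 libraries. It stood at 139 and 135 TPM in KYSE30 and at 59.5 and 51.2 TPM in TE-1, where HS6ST2 was higher with l-lactate. The KYSE30 libraries were far above the TE-1 libraries, by 2.34 times (2.12 to 2.59) between the controls. With l-lactate its ratio to the control was 0.967 (0.885 to 1.06) in KYSE30 and 0.862 (0.761 to 0.976) in TE-1. Nearly all NDST1 tags, 93.8% to 97.8%, ended on 1 base, the last base of the annotated 3′ UTR, 4879 nt after the stop codon. A minor site 939 nt after the stop codon was listed only in KYSE30, at 3.10 and 3.48 TPM, and a site in intron 7 at 1.95 to 3.19 TPM in every library but the KYSE30 control.

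NDST2, the second N-deacetylase/N-sulfotransferase measured, was the only one of the 10 genes past 1.5-fold with l-lactate, and it was so in both lines. It was at 6.87 and 4.18 TPM in KYSE30 and 8.37 and 4.37 TPM in TE-1, that is -0.60 and -0.80 on the log2(TPM + 1) scale. Of all genes listed in both libraries, 2.39% were lower past 1.5-fold in KYSE30 and 1.69% in TE-1, and 0.392% were past it the same way in both lines. The call rests on 1 PAC at the limit of the files: a single base in a noncoding exon of NDST2-203, listed at 3.10 TPM (23 tags) in the KYSE30 control and 3.18 TPM (33 tags) in the TE-1 control and in neither l-lactate library. The lowest single-site PAC listed was at 3.10 and 3.08 TPM in those control libraries. The PAC in the 3′ UTR of NDST2 stood at 3.77 and 4.18 TPM in KYSE30 and 5.20 and 4.37 TPM in TE-1, with ratios of 1.11 (0.640 to 1.93) and 0.841 (0.538 to 1.30). Counted over the 3′ UTR alone, NDST2 was thus within counting error in both lines, and its sign was positive in KYSE30. The 30 bases up to each NDST2 site, with the poly(A) signal in capitals, show that both carry a main signal. A readthrough gene model, ENSG00000272916, covers both sites on the same strand.
NDST2 noncoding exon, chr10:73810690-73810719 (-): tgtgaagATTAAAtatatgtgaagctctta
NDST2 3′ UTR, chr10:73801915-73801944 (-): aatgtccttAATAAAcatccttatttttct

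GLCE, the epimerase that makes iduronic acid and so the preferred substrate of HS2ST1, was listed in TE-1 only, at 5.39 TPM in the control and 7.32 TPM with l-lactate, a ratio of 1.36 (0.931 to 1.99). It had no listed PAC in its 3′ UTR. Its single PAC lay in intron 1, with AATAAA ending 16 nt before it, so these tags ended inside an intron and not at the annotated end of the gene.
GLCE intron 1, chr15:69197430-69197459 (+): ttttgatgAATAAAgatgtgtttgagccta

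Neither of the 6-O-sulfotransferases passed 1.5-fold with l-lactate in either line, although all 4 ratios were above 1. HS6ST1 was at 48.8 and 56.2 TPM in KYSE30 and 32.3 and 38.4 TPM in TE-1, with ratios of 1.15 (0.997 to 1.33), within counting error, and 1.19 (1.02 to 1.39). HS6ST2 was at 65.3 and 76.4 TPM in KYSE30 and 56.8 and 65.8 TPM in TE-1, with ratios of 1.17 (1.03 to 1.32) and 1.16 (1.03 to 1.30). Each had a single 3′ UTR PAC, at 0 and 2 nt from the annotated end of the 3′ UTR. HS6ST2 had a second PAC in intron 2, listed only in KYSE30, at 4.18 and 5.16 TPM. Of the 3 O-sulfotransferase genes, HS2ST1 was therefore the only one with more than 1 listed 3′ UTR PAC.

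In the KYSE30 control the order of levels was NDST1, HS2ST1, HS6ST2, EXT2, HS6ST1, EXTL2, EXTL3, EXT1 and NDST2. The neighbours HS6ST2 and EXT2, and HS6ST1 and EXTL2, had overlapping counting intervals. In the TE-1 control it was NDST1, HS6ST2, EXTL2, HS2ST1, EXT2, HS6ST1, EXT1, EXTL3, NDST2 and GLCE. There NDST1 overlapped HS6ST2, EXTL2 overlapped HS2ST1, HS2ST1 overlapped EXT2, EXT2 overlapped HS6ST1, EXT1 overlapped EXTL3, and NDST2 overlapped GLCE. HS2ST1 thus stood next to the top in the KYSE30 control, where its interval overlapped that of neither neighbour. In the TE-1 control its interval overlapped those of EXTL2 and EXT2. An overlap of intervals is no test of a difference, and none was run between genes.

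Across the 9 of these genes listed in both KYSE30 libraries the median log2 ratio was 0.05, beside 0.004 over all 9984 genes. Across the 10 listed in both TE-1 libraries it was 0.22, beside 0.04 over all 9827 genes. The differences between the lines were larger. Of 9 genes listed in both controls, 3 were higher past 1.5-fold in KYSE30 (HS2ST1, NDST1 and EXT2) and none was lower. Over all genes, 26.8% were higher and 24.3% lower. HS6ST1 lay at the limit, with a ratio of 1.51 (1.30 to 1.75), and was not called on log2(TPM + 1). The median log2 ratio of the 9 genes was 0.43, beside 0.02 over all genes. Between the l-lactate libraries HS2ST1 and NDST1 were higher in KYSE30 and EXT1 lower, beside 24.8% and 24.7% of all genes. EXT1 was higher in TE-1 in both conditions, at 0.741 (0.593 to 0.922) and 0.513 (0.410 to 0.638) as ratios of KYSE30 to TE-1.

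**Figure D4:**
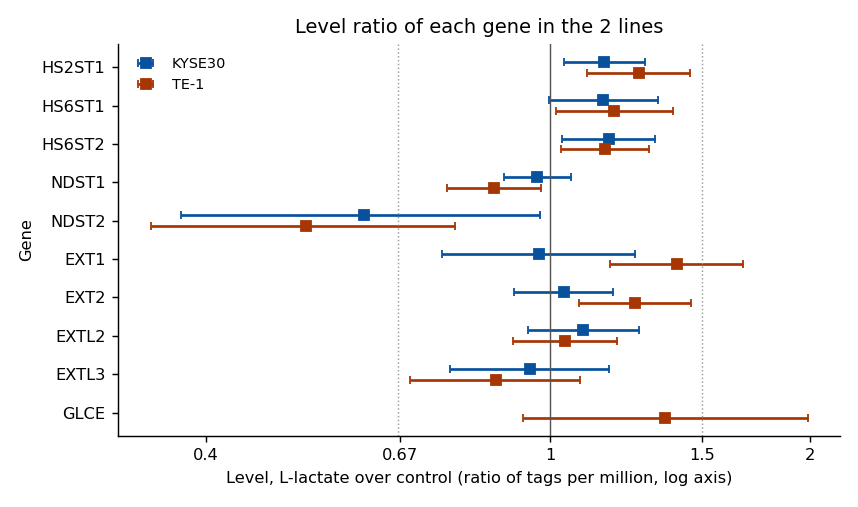
Ratio of TPM with l-lactate over control (log x axis) for each of the 10 genes (y axis) in KYSE30 and TE-1, with exact conditional 95% intervals; the solid line marks 1 and the dotted lines 1.5-fold in each direction. NDST2 lies left of the dotted line in both lines (0.609 and 0.522), and the points of the other genes lie between the dotted lines.

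A list of 43 other genes of the pathway gave the surroundings. None of its 11 chain and modification genes, which include the 3-O-sulfotransferases, was listed in any library, and 26 of the 43 were listed in at least 1. Of 24 listed in both KYSE30 libraries none passed 1.5-fold with l-lactate, beside 4.48% of all genes. Of 23 in TE-1 the sulfate transporter SLC26A2 (16.3 and 26.1 TPM, ratio 1.60) and the sulfatase SULF2 (4.71 and 7.68 TPM, ratio 1.63) were higher and the glypican GPC4 (4.91 and 2.13 TPM, ratio 0.433) was lower, beside 4.58% of all genes. SULF2, GPC4 and, further on, PXYLP1 were named after their values were seen. None of the 43 passed 1.5-fold in both lines. The most abundant were SDC1, a syndecan core protein, UGDH, which makes UDP-glucuronic acid, and UGP2, which makes UDP-glucose. SDC1 was at 298 and 321 TPM in KYSE30 and 136 and 154 TPM in TE-1, UGDH at 85.7 and 94.8 TPM and 304 and 327 TPM, and UGP2 at 182 and 174 TPM and 220 and 208 TPM. SDC4, another syndecan, was at 69.9 and 63.3 TPM and 51.2 and 53.8 TPM. Between the controls 9 of 22 were higher past 1.5-fold in KYSE30, with SDC1 and SLC26A2 among them, and 2 were lower, UGDH and the linker phosphatase PXYLP1. Of all genes, 26.8% were higher and 24.3% lower past 1.5-fold between the controls.

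Distal usage could be measured in 5 of these genes in KYSE30 and in 3 in TE-1. With l-lactate it was lower in 4 and higher in 1 in KYSE30, from -20.9 to 4.44 points. In TE-1 it was lower in 2 and higher in 1, from -13.2 to 4.21 points. In B3GALT6, which adds a galactose of the linker, it was 61.1% in the KYSE30 control and 40.2% with l-lactate, or -20.9 points (-28.7 to -12.8), and 34.9% and 26.0% in TE-1, or -8.87 points (-15.2 to -2.31). It was thus lower in both lines, and by 10 points or more in KYSE30 only. In SDC2, a syndecan on chromosome 8 listed only in TE-1, the distal PAC held 13.2% of tags in the control and was not listed with l-lactate. Its -13.2 points counts the unlisted PAC as 0 tags. That PAC may still have been used, so the fall may be smaller. SDC1 stayed within 5 points in both lines, at 59.6% and 58.4% in KYSE30 and 43.8% and 48.0% in TE-1. Either direction counted, 9.15% of all genes differed by 10 points in KYSE30 and 11.3% in TE-1.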

How the data were processed

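The authors trimmed the PAS-seq reads with FASTX-Toolkit (version 0.0.13), aligned them to GRCh38 with HISAT2 (the submitters' notes name GRCh38.p14) and called poly(A) sites with CAGEr. Sites under 1 TPM were left out, sites within 24 nt were joined, lone sites under 3 TPM were removed, and clusters above 5 TPM within 500 nt were joined. The deposited values, named TPM, are tags per 1000000 tags of the library (RPM) per cluster. Each library total was inferred as the number that brings these values nearest to whole tags. All values were then whole within 0.05 of a tag. Because the totals were fitted to this, it is no separate check of them.

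The 4 tables were joined on the cluster and placed on GENCODE 44. A gene's level was the sum over its clusters, an unlisted cluster adding 0, and a change was called past 1.5-fold on log2(TPM + 1) between libraries that both list the gene. Distal usage was called at 10 percentage points. Intervals were Wilson (shares), Newcombe (share differences), exact Poisson (levels) and exact conditional (ratios), all at 95%. The scripts (Python 3.11.15, pandas 2.3.3, SciPy 1.17.1) were tested on simulated data. Named outside the 10 genes were pathway genes called in both lines or changed in distal usage in 1, the 5 with the highest mean TPM, the 3 nearest to HS2ST1 in distal usage, and its neighbours and those at the limit in the ranking that chose it; SULF2, GPC4 and PXYLP1 were named after their values were seen. The genes and lists were chosen with earlier results of these data known. Nothing states that the libraries came from separate cultures, and no batch is given.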

Additional observations from a re-analysis of the deposited data

How the results depend on the processing

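No paired analysis was possible because each condition and line had 1 library and the labels carry no replicate numbers; for the same reason no replicate could be left out. Over the alternatives run, the distal usage difference of HS2ST1 with l-lactate was from -14.2 to -13.5 points in KYSE30 and from -15.9 to -13.8 points in TE-1. HS2ST1 was chosen for these falls and the alternatives reuse the same tags, so both ranges are a description and no support. Between the controls the difference was from -5.81 to -4.11 points. Asking for 20 points left 0 of the 10 genes called in each line.

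The lower NDST2 level, the 1 call among the 10 genes in each line, became 0 calls in both lines with a pseudocount of 5, over 3′ UTR clusters alone, over clusters above 5 TPM, at 2-fold and over clusters listed in both libraries (chosen after seeing the data), and in KYSE30 also with a limit on Fisher's exact test of tags (adjusted p at most 0.01), which compares libraries and not conditions. Over 3′ UTR clusters, or over those listed in both libraries, its log2 ratio in KYSE30 turned to 0.12. Between the controls, the 3 of the 10 genes called by level became 4 with a pseudocount of 0.5 and 2 at 2-fold. The 3 other pathway genes called by level in TE-1 became 0 with a pseudocount of 5 or at 2-fold and 1 with the Fisher limit. The 11 other pathway genes called between the controls became 7 at 2-fold. The 1 called by distal usage in TE-1 (SDC2) became 0 at 10 TPM, at 20 points or over clusters listed in all 4 libraries, and 2 at 5 points. Rescaling by the median ratio of genes (0.984 to 1.01 per library) changed no count of members called. The NDST2 cluster behind its call rests on 23 and 33 tags, and an unlisted cluster is not shown to be unused.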
